A study of Mus musculus with 8 samples.

Results

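The genes described here are 9 genes known from the nervous system, led by Pax6, in mouse embryonic stem cells. They are the transcription factor genes Pax6, Zfp521 and Sox1, the progenitor filament gene Nes, the neuronal microtubule genes Tubb3, Map2, Stmn3 and Stmn2, and the cell adhesion gene Ncam1. They were taken from the count table as the rows whose Ensembl identifiers, without the version, map to these symbols, which gave 9 of the 47643 genes in the table. All 9 were among the 16388 genes that passed the filter on low counts. The set was chosen by what these genes are known for and by measured values, the change of Pax6 in Ago1_2 KO against WT being among the largest there, so the values of the 9 genes in that comparison are given as a description without a test. The same holds for every other comparison that contains the Ago1_2 KO libraries.

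Polyadenylated RNA was sequenced from E14 cells, a stem cell line of the 129/Ola background whose tissue of origin is given as the blastocyst. The genotypes were a double knockout of Ago1 and Ago2 (Ago1_2 KO), a knockout of Drosha (Drosha KO), a knockout of Dgcr8 (Dgcr8 KO) and wild type (WT), with 2 libraries each. All cells, WT included, had spent 2 weeks or longer in N2B27 medium with LIF, the GSK3 inhibitor CHIR99021 and the MEK inhibitor PD0325901. The labels give neither the alleles nor the number of clones behind a genotype, and give no sign of whether replicates were separate cultures. The p-values therefore cover only the spread among these 8 libraries, which may be technical.

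DROSHA and DGCR8 form the Microprocessor, the nuclear complex that cuts primary transcripts into miRNA precursors, and Argonaute proteins hold the mature miRNA and bind it to messages that carry a match to its seed. In embryonic stem cells much of this load is made up of miR-290 and miR-17 family members. In neural development PAX6, SOX1 and ZFP521 act early, in cells that turn to a neural fate and in progenitors, nestin marks progenitors, and class III tubulin, MAP2, the stathmins and NCAM1 build the shape of the young neuron.

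For a member of each of these miRNA families the mature sequence is shown (RefSeq, GRCm38.p6), because their seeds are those sought in the 3′ UTRs below. Capitals mark the seed, bases 2 to 8 from the 5′ end.
mmu-miR-294-3p: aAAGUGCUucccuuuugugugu
mmu-miR-20a-5p: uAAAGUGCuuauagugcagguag
The first lies at chr7:3220691-3220712 and the second at chr14:115044183-115044205, both on the plus strand. Their 7-base sites, AGCACTT and GCACTTT, share the letters GCACTT and were found in 18.2% and 14.7% of the 13429 longest annotated 3′ UTRs of tested genes. Of the 9 genes, Pax6 and Stmn2 held AGCACTT and Map2 held GCACTTT, once each, on the transcript strand.
Pax6 site: gaaatggcggttagaAGCACTTcac
Stmn2 site: gaatctaccagtcatAGCACTTatg
Map2 site: tctcttaggattgatGCACTTTtgt
Capitals mark the match. It starts at base 112 of 1009 in the Pax6 3′ UTR, at base 593 of 1281 in that of Stmn2 and at base 652 of 3576 in that of Map2. The other 6 genes had neither match. Zfp521 held the let-7 site CTACCTC, which 12% of the UTRs contain. The miR-9 site ACCAAAG, in 15.2% of the UTRs, was in none of the 9 genes. A match describes the sequence and does not show that a miRNA acts on it.

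Total counts lay between 13229771 and 26333907 per library. Drosha mRNA stood at 51.2 and 82.4 CPM (counts scaled to the size of the library) in Drosha KO, against 278 and 266 CPM in WT. Dgcr8 mRNA had 392 and 370 CPM in Dgcr8 KO, against 78.1 and 70.5 CPM in WT. It was also high in Drosha KO, at 304 and 234 CPM, but not in Ago1_2 KO, at 91.2 and 82.9 CPM. In Ago1_2 KO, Ago1 mRNA had 160 and 87.8 CPM and Ago2 mRNA 216 and 195 CPM, against 106 and 63.3 CPM and 464 and 227 CPM in WT. A clear fall of all the targeted mRNAs was thus not there to check the labels Dgcr8 KO and Ago1_2 KO. What the high Dgcr8 mRNA in Drosha KO and Dgcr8 KO says of the labels was not tested. The group names below are those of the labels. The Drosha KO libraries differed from each other in several of the genes below, and calls of the 9 genes that ended without 1 library are given with their values without it. All 15 naive pluripotency genes listed were measured in every genotype, with summed levels of 6800 and 7180 CPM in Ago1_2 KO, 6790 and 7430 CPM in Drosha KO, 6390 and 6170 CPM in Dgcr8 KO, and 7210 and 6230 CPM in WT. At an edgeR adjusted p under 0.05, Fgf4 and Prdm14 were higher in Ago1_2 KO and Nr0b1 in Drosha KO than in WT. Of all tested genes, 10.2% and 6.53% were higher in these comparisons. These 3 calls were each lost when some single libraries were left out, and 0 of the 15 were lower in any KO. In bulk RNA, more cells of a kind and more RNA per cell cannot be told apart.

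The 9 genes did not move as one. In Ago1_2 KO against WT, where the set was chosen, the log2 fold change ran from -0.61 for Sox1 to 5.60 for Pax6, with Tubb3, Zfp521 and Ncam1 next at 3.13, 2.51 and 1.59. In what follows, called means an adjusted p under 0.05 in edgeR's quasi-likelihood test over all genes tested. Of all tested genes 17.6% were called in Ago1_2 KO against WT, 10.2% higher and 7.38% lower, and 4 of the 9 had a p past that threshold there, a count that the choice of the set bears on and from which nothing is read. In Drosha KO against WT, 4 were called higher, Pax6, Zfp521, Tubb3 and Stmn3, and 1 lower, Stmn2, beside 11.4% of all genes, with 6.53% higher and 4.83% lower. In Dgcr8 KO against WT, 0 were called higher and 3 lower, Stmn3, Nes and Sox1, beside 6.93% of all genes, with 2.44% higher and 4.48% lower. At an unadjusted p under 0.05 in that edgeR test, 1 was higher there, Zfp521. Their median log2 fold change was 0.97 in Ago1_2 KO, 0.69 in Drosha KO and -0.42 in Dgcr8 KO, while that of all tested genes was -0.02, -0.02 and -0.03. These comparisons share the WT libraries.

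**Figure D1:**
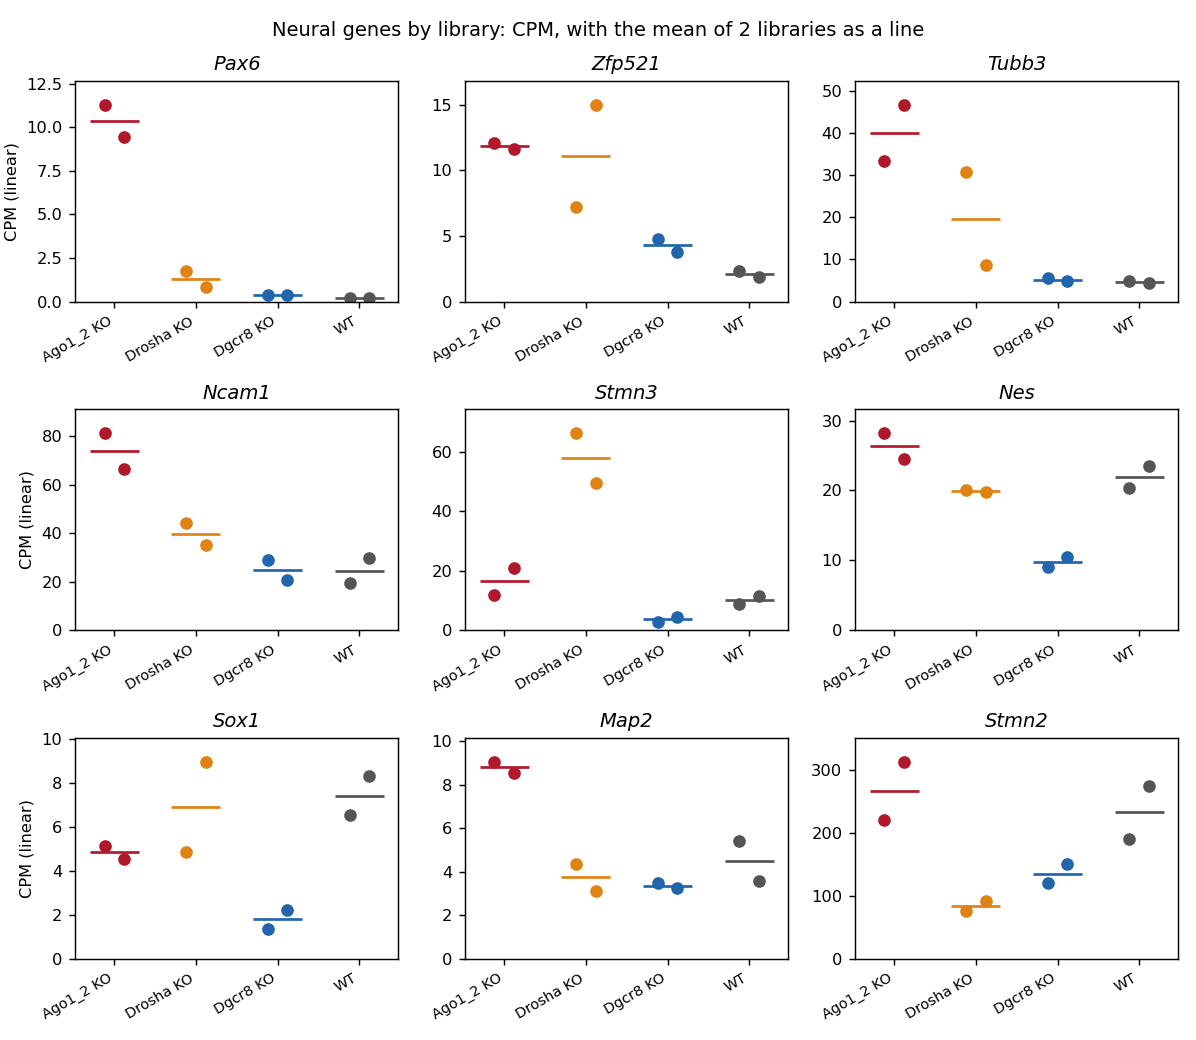
Level of each of the 9 neural genes in every library, in CPM on a linear axis that starts at 0, with genotypes along the horizontal axis, a point for each library and a line at the mean of 2 libraries. Pax6 reaches 11.3 and 9.43 CPM in Ago1_2 KO and at most 1.76 CPM in any other library, while Stmn3 peaks in Drosha KO and Nes and Sox1 are lowest in Dgcr8 KO.

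Pax6 encodes a paired-box and homeobox transcription factor of the eye, forebrain and neural progenitors (GRCm38 chr2:105668900-105697364, plus strand). It stood at 11.3 and 9.43 CPM in Ago1_2 KO, 1.76 and 0.853 CPM in Drosha KO, 0.369 and 0.381 CPM in Dgcr8 KO, and 0.226 and 0.193 CPM in WT. These levels rest on 285 and 126 counts in Ago1_2 KO, 31 and 22 in Drosha KO, 7 and 6 in Dgcr8 KO, and 4 and 4 in WT. The genotypes did not overlap in the order Ago1_2 KO, Drosha KO, Dgcr8 KO, WT. The Ago1_2 KO mean was 48.4-fold that of WT, a log2 fold change of 5.60 ± 0.53 (SE, 2 libraries per group). In Drosha KO, Pax6 rose by 2.58 ± 0.55 over WT (edgeR adjusted p 0.0187), and the call was lost without Drosha KO 1 (2.00, adjusted p 0.0707) and without WT 2 (2.49, adjusted p 0.0768). The Drosha KO call was also lost in an edgeR fit of Drosha KO and WT alone (2.62, adjusted p 0.0761). In Dgcr8 KO the log2 fold change was 0.83 ± 0.63 over WT (edgeR adjusted p 0.395), which at 4 to 7 counts per library could not be told from no change.

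The first of the Pax6 promoters in RefSeq (GRCm38.p6, chr2:105668646-105668945, plus strand, 250 bases before to 50 after the start) is shown because Pax6 leads the set. Capitals mark the letters CCAAT, which 37.4% of 32851 promoters hold on either strand.
Pax6 promoter: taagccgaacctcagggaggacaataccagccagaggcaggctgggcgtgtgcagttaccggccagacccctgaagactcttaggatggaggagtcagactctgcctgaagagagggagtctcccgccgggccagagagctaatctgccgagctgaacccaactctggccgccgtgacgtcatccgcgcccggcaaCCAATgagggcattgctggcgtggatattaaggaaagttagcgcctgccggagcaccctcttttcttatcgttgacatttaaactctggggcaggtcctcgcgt
The GC content of this window was 58.7%, against a median of 52.7% over all promoters, and it held 18 CpG against a median of 7. It held neither TATAAA nor CAGCACC on either strand. CAGCACC is part of the element bound by the neuronal gene repressor REST.

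The other paired-box genes were measured as a family list. Of 9 listed, 4 passed the filter, Pax5, Pax6, Pax7 and Pax8, and Pax5, Pax7 and Pax8 were called in none of the 6 comparisons. Pax7 lay at 0.796 and 1.05 CPM in Ago1_2 KO, against 0.226 and 0.242 CPM in WT. Pax2 and Pax3, which act in the midbrain and dorsal neural tube, stayed under 1 CPM in every library. Summed over the family, Ago1_2 KO held 16.9 and 14.1 CPM, of which 11.3 and 9.43 CPM were Pax6.

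Pax6 was also compared with the genes beside it on chromosome 2. The nearest was Elp4, an Elongator subunit gene whose introns hold Pax6 enhancers. Its annotated span, on the minus strand, comes within 3663 bases of the end of Pax6. Elp4 stood at 28.7 and 25.3 CPM in Ago1_2 KO, against 17.5 and 24.5 CPM in WT. Elp4, Immp1l and Dnajc24 on that side and Rcn1 on the other were not called in Ago1_2 KO against WT. Wt1, a kidney and gonad transcription factor gene 495284 bases before Pax6, was called (3.43 ± 0.71, edgeR adjusted p 0.0134; not without either Ago1_2 KO library or WT 2, at 3.11 to 3.87), at a mean of 0.919 CPM in Ago1_2 KO and 0.0766 CPM in WT. Them7, also on that side, did not pass the filter. The antisense gene Pax6os1, which overlaps the start of Pax6, had 0 counts in all 8 libraries.

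Zfp521, a zinc-finger transcription factor gene that promotes the neural turn of mouse embryonic stem cells (GRCm38 chr18:13687013-13972787, minus strand), stood at 12.1 and 11.6 CPM in Ago1_2 KO, 7.21 and 15 CPM in Drosha KO, 4.80 and 3.81 CPM in Dgcr8 KO, and 2.31 and 1.84 CPM in WT. All 6 KO libraries were above both WT libraries, and the Ago1_2 KO values lay within the Drosha KO range. In Ago1_2 KO the change over WT was 2.51 ± 0.40 on the log2 scale. In Drosha KO it rose by 2.42 ± 0.40 over WT (edgeR adjusted p 0.00747), or by 1.80 without Drosha KO 2, the higher library, where it was still called (adjusted p 0.0129). In Dgcr8 KO the change of 1.06 ± 0.40 was not called (edgeR adjusted p 0.119), and it was called without Drosha KO 1 in the shared fit (1.05, adjusted p 0.0493). Of the 9 genes, Zfp521 is the only one above WT in both libraries of every KO by more than 2-fold in the means.

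Sox1, among the first transcription factor genes of the neural plate (GRCm38 chr8:12395295-12400126, plus strand), stood at 5.13 and 4.56 CPM in Ago1_2 KO, 4.88 and 8.99 CPM in Drosha KO, 1.37 and 2.22 CPM in Dgcr8 KO, and 6.55 and 8.32 CPM in WT. It did not follow Pax6: both Ago1_2 KO libraries were below both WT libraries, and the Dgcr8 KO libraries were the lowest of all. The log2 fold change over WT was -0.61 ± 0.39 in Ago1_2 KO. In Drosha KO it was -0.09 ± 0.39 (edgeR adjusted p 0.891), with libraries on both sides of the WT range. In Dgcr8 KO, Sox1 fell by 2.05 ± 0.42 (edgeR adjusted p 0.0252). That call was lost without Dgcr8 KO 1 (-1.74, adjusted p 0.264), Dgcr8 KO 2 (-2.44, adjusted p 0.122), WT 2 (-1.87, adjusted p 0.0800), and by a smaller margin when either Ago1_2 KO library was dropped from the shared fit (-2.05 and -2.06, adjusted p 0.0526 and 0.0523).

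Nes, the gene of nestin, an intermediate filament of neural progenitors (GRCm38 chr3:87971078-87980451, plus strand), stood at 28.2 and 24.5 CPM in Ago1_2 KO, 20 and 19.8 CPM in Drosha KO, 8.97 and 10.5 CPM in Dgcr8 KO, and 20.4 and 23.5 CPM in WT. Dgcr8 KO stood apart below the other genotypes. The log2 fold change over WT was 0.26 ± 0.22 in Ago1_2 KO and -0.14 ± 0.22 in Drosha KO (edgeR adjusted p 0.697 in Drosha KO). In Dgcr8 KO, Nes fell by 1.17 ± 0.22 (edgeR adjusted p 0.0196), a call lost without Dgcr8 KO 1 (-1.06, adjusted p 0.245), without Dgcr8 KO 2 (-1.30, adjusted p 0.142), and with an offset for transcript GC content (-0.82, adjusted p 0.0607). The Nes transcript has 55.5% GC, against a median of 49.7% over all tested genes.

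Tubb3 encodes class III beta-tubulin of neurons (GRCm38 chr8:123411424-123422015, plus strand). It stood at 33.4 and 46.7 CPM in Ago1_2 KO, 30.7 and 8.57 CPM in Drosha KO, 5.49 and 4.89 CPM in Dgcr8 KO, and 4.85 and 4.31 CPM in WT. Drosha KO 1 lay just under the Ago1_2 KO libraries and Drosha KO 2 nearer to Dgcr8 KO and WT. Over WT, the Ago1_2 KO log2 fold change was 3.13 ± 0.52. In Drosha KO it rose by 2.09 ± 0.50 (edgeR adjusted p 0.0289), but 1 library decided the size: the change was 0.91 without Drosha KO 1 (adjusted p 0.126) and 2.75 without Drosha KO 2. The call was also lost without WT 1 (2.2, adjusted p 0.0564) and without WT 2 (2.03, adjusted p 0.125). Under limma-voom (1.74, adjusted p 0.0884) and in an edgeR fit of Drosha KO and WT alone (2.12, adjusted p 0.0559) it was lost too. In Dgcr8 KO the change was 0.18 ± 0.51 (edgeR adjusted p 0.832).

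Tubb3 lies within the annotated read-through gene Gm20388 on the same strand, which held 535 to 1307 counts per library, so how reads were split between them is uncertain. Its promoter (RefSeq, GRCm38.p6, chr8:123411303-123411602, plus strand) is shown because it is the 1 promoter among those read for the set that holds the REST element letters. Capitals mark, in order, CAGCACC on the minus strand, which 7.14% of promoters hold on either strand, and CCAAT on the minus strand.
Tubb3 promoter: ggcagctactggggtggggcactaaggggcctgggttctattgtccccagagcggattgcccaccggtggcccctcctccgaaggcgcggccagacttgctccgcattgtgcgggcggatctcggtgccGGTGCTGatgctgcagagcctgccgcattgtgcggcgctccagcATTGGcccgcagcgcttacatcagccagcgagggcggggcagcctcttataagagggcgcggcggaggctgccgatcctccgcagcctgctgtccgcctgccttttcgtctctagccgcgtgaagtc
RefSeq promoters were at hand for 6 of the 9 genes. TATAAA, present in 13.6% of promoters on either strand, was in none of them.

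Of 8 beta-tubulin genes listed, 6 passed the filter, Tubb3 included. Of the others 1 rose and 1 fell in Ago1_2 KO against WT, beside 10.2% and 7.38% of all tested genes. Tubb2a, expressed in neurons and other cells, was higher in Ago1_2 KO than in WT by 0.67 ± 0.19 (edgeR adjusted p 0.0430). Tubb6, a broadly expressed class, fell by 1.55 ± 0.20 in Ago1_2 KO (edgeR adjusted p 0.00167) and fell by 1.0 ± 0.19 in Drosha KO (edgeR adjusted p 0.0132), against WT. Tubb2b, the neural class II gene, had 344 and 355 CPM in Ago1_2 KO, against 334 and 485 CPM in WT.

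Map2, a microtubule protein gene of dendrites (GRCm38 chr1:66175273-66442583, plus strand), stood at 9.07 and 8.53 CPM in Ago1_2 KO, 4.37 and 3.10 CPM in Drosha KO, 3.48 and 3.24 CPM in Dgcr8 KO, and 5.42 and 3.58 CPM in WT. The Ago1_2 KO libraries were above the other 6. Both Dgcr8 KO libraries were below both WT libraries, and the Drosha KO libraries overlapped with Dgcr8 KO and with WT. The log2 fold change over WT was 0.97 ± 0.35 in Ago1_2 KO, or 1.33 without WT 1. It was -0.27 ± 0.35 in Drosha KO (edgeR adjusted p 0.635) and -0.42 ± 0.35 in Dgcr8 KO (edgeR adjusted p 0.446).

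Stmn3 and Stmn2 encode neuronal stathmins, phosphoproteins that take microtubules apart in growing neurites. Stmn3 (GRCm38 chr2:181306459-181314500, minus strand) stood at 11.7 and 21.0 CPM in Ago1_2 KO, 66.2 and 49.6 CPM in Drosha KO, 2.74 and 4.45 CPM in Dgcr8 KO, and 8.80 and 11.6 CPM in WT. Drosha KO was highest and Dgcr8 KO lowest, so the 2 genotypes that each remove a Microprocessor subunit by their labels stood at the opposite ends. The log2 fold change over WT was 0.67 ± 0.34 in Ago1_2 KO. In Drosha KO, Stmn3 rose by 2.50 ± 0.35 (edgeR adjusted p 0.00391), a call held under every setting run. In Dgcr8 KO it fell by 1.51 ± 0.36 (edgeR adjusted p 0.0391), a call lost without Dgcr8 KO 1 (-1.19, adjusted p 0.314), Dgcr8 KO 2 (-1.90, adjusted p 0.129) or WT 2 (-1.30, adjusted p 0.142), and with the GC offset (-1.06, adjusted p 0.0921). The Dgcr8 KO call was also lost under limma-voom (-1.55, adjusted p 0.0701) and in an edgeR fit of Dgcr8 KO and WT alone (-1.51, adjusted p 0.0626). The Stmn3 transcript has 57.3% GC.

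Stmn2 (GRCm38 chr3:8509360-8561606, plus strand) stood at 221 and 314 CPM in Ago1_2 KO, 75.5 and 91.1 CPM in Drosha KO, 120 and 151 CPM in Dgcr8 KO, and 191 and 275 CPM in WT. It was the most abundant of the 9 genes per kilobase of exon in WT, at 41.5 CPM per kb, where Pax6 was the least, at 0.0179 CPM per kb. The Ago1_2 KO and WT libraries overlapped, with a log2 fold change of 0.20 ± 0.25. In Drosha KO, Stmn2 fell by 1.48 ± 0.26 (edgeR adjusted p 0.00895), a call lost without Drosha KO 1 (-1.35, adjusted p 0.0624). In Dgcr8 KO the change of -0.78 ± 0.25 was not called (edgeR adjusted p 0.0841), and it was called by DESeq2 (-0.76, adjusted p 0.0386), without the low-count filter (-0.79, adjusted p 0.0111) and without WT 1 (-1.0, adjusted p 0.0243). The related Stmn1, expressed in dividing cells, had 142 and 207 CPM in Ago1_2 KO, against 89.7 and 145 CPM in WT, and Stmn4 had 0 counts in all 8 libraries.

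Ncam1, a cell adhesion gene of neural cells (GRCm38 chr9:49502136-49798925, minus strand), stood at 81.2 and 66.5 CPM in Ago1_2 KO, 44.3 and 35 CPM in Drosha KO, 28.8 and 20.5 CPM in Dgcr8 KO, and 19.4 and 29.7 CPM in WT. Ago1_2 KO was highest, Drosha KO next, and Dgcr8 KO and WT overlapped. Its log2 fold change over WT was 1.59 ± 0.27 in Ago1_2 KO, or 1.44 without Ago1_2 KO 1. It was 0.69 ± 0.27 in Drosha KO (edgeR adjusted p 0.123) and 0.01 ± 0.27 in Dgcr8 KO (edgeR adjusted p 0.988).

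**Figure D2:**
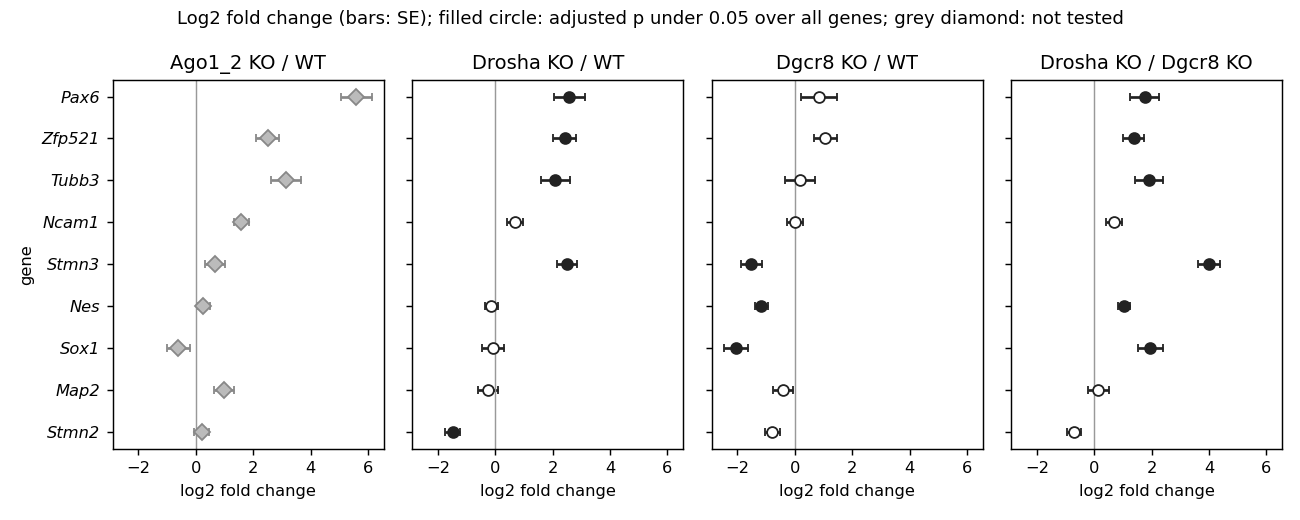
Log2 fold change of the 9 genes (horizontal axis, bars of 1 SE from 2 libraries per group) in Ago1_2 KO, Drosha KO and Dgcr8 KO over WT and in Drosha KO over Dgcr8 KO, with filled circles for an adjusted p under 0.05 over all 16388 genes and grey diamonds, with no test, for Ago1_2 KO. Pax6, Zfp521 and Tubb3 lie to the right in Ago1_2 KO and Drosha KO, whereas Stmn3, Nes and Sox1 lie to the left in Dgcr8 KO, at -1.51, -1.17 and -2.05.

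Drosha KO and Dgcr8 KO, which by their labels each lack a subunit of the same complex, were set against each other directly. In Drosha KO against Dgcr8 KO, 6 of the 9 genes were called higher and 0 lower, beside 15.4% of all genes, with 9.67% higher and 5.72% lower. Stmn3 was higher in Drosha KO by 4.01 ± 0.38, or 16.2-fold (edgeR adjusted p 0.000671), under every setting run. Sox1 was higher by 1.96 ± 0.42 (edgeR adjusted p 0.0155) and Nes by 1.03 ± 0.22 (edgeR adjusted p 0.0159). Tubb3 was higher by 1.91 ± 0.50, Zfp521 by 1.37 ± 0.38 and Pax6 by 1.76 ± 0.51, with edgeR adjusted p of 0.0317, 0.0397 and 0.0451. These 3 calls ended under limma-voom (adjusted p 0.108, 0.0550 and 0.0920) and in a fit of these genotypes alone (adjusted p 0.0717, 0.0695 and 0.0819). Tubb3 was also not called with the GC offset (1.46, adjusted p 0.108), nor Nes (0.70, adjusted p 0.0655), and Pax6 was not called when scaled by library size only (1.72, adjusted p 0.0516). Against WT, Pax6, Zfp521, Tubb3 and Stmn3 were called higher in Drosha KO, and Stmn3, Sox1 and Nes lower in Dgcr8 KO, so Stmn3 was called on both sides.

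The count of 6 fell to 1 without Dgcr8 KO 1 and to 1 without Dgcr8 KO 2, Stmn3 remaining. Without Dgcr8 KO 1, Sox1 was at 1.64 (adjusted p 0.170) and Nes at 0.92 (adjusted p 0.185), and without Dgcr8 KO 2 at 2.34 (adjusted p 0.0763) and 1.16 (adjusted p 0.104). Pax6, Zfp521 and Tubb3 lay between 1.22 and 2.00 without either of these libraries, with adjusted p from 0.165 to 0.253. The count was 3 without either Ago1_2 KO library, which enter through the shared spread, where the calls of Pax6, Zfp521 and Tubb3 ended at adjusted p from 0.0501 to 0.0879. Leaving out Drosha KO 1 ended the calls of Pax6 (1.18, adjusted p 0.142) and Tubb3 (0.73, adjusted p 0.139), and leaving out Drosha KO 2 ended those of Zfp521 (0.75, adjusted p 0.188) and Sox1 (1.46, adjusted p 0.0550). Ncam1 (0.68 ± 0.27, adjusted p 0.115), Map2 (0.14 ± 0.36, adjusted p 0.809) and Stmn2 (-0.70 ± 0.25, adjusted p 0.0887) were not called in edgeR's test. Stmn2 was called lower in Drosha KO without the low-count filter (-0.69, adjusted p 0.0323), without WT 1 (-0.70, adjusted p 0.0458) and without WT 2 (-0.69, adjusted p 0.0454).

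The other comparisons among KO genotypes contain the Ago1_2 KO libraries and are a description. In Ago1_2 KO against Dgcr8 KO the log2 fold change of all 9 was positive, from 0.98 ± 0.25 for Stmn2 to 4.77 ± 0.50 for Pax6. In Ago1_2 KO against Drosha KO it was 3.01 ± 0.43 for Pax6, 1.68 ± 0.26 for Stmn2 and -1.83 ± 0.34 for Stmn3. Of all tested genes 17.1% were called against Dgcr8 KO (11.6% higher and 5.54% lower) and 0.732% against Drosha KO (0.409% higher and 0.323% lower). From 9 and 3 of the set past the threshold there nothing is read, since the set was chosen on these libraries. Tubb3 differed between Ago1_2 KO and Drosha KO by 1.03 ± 0.47, or by 2.22 without Drosha KO 1.

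Across all 8 libraries, both Ago1_2 KO libraries stood above the other 6 for 5 of the 9 genes, Pax6, Tubb3, Ncam1, Nes and Map2, beside 8.89% of all tested genes. From that count nothing is read, since the set was chosen on the Ago1_2 KO libraries. Both Drosha KO libraries stood above the other 6 for Stmn3, beside 4.34% of all genes, and below the other 6 for Stmn2, beside 5.3%. Both Dgcr8 KO libraries stood below the other 6 for Stmn3, Nes and Sox1, beside 14.7% of all genes. Per kilobase of exon, the most abundant of the set in Ago1_2 KO were Stmn2 (47.7 CPM per kb), Tubb3 (21.4) and Stmn3 (14.4), and in Drosha KO Stmn3 (51.0), Stmn2 (14.9) and Tubb3 (10.5). In Dgcr8 KO they were Stmn2 (24.2), Stmn3 (3.17) and Ncam1 (2.85), and in WT Stmn2 (41.5), Stmn3 (8.96) and Nes (3.42). Pax6 was the least abundant in Drosha KO, Dgcr8 KO and WT, and next to the least in Ago1_2 KO, above Map2.

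The genes most like Pax6 were found by Pearson's correlation of log2 CPM (prior count 2) over the 8 libraries, among 13090 genes at 1 CPM or more in 1 genotype. The 10 closest were Thbs1, Loxl4, Gopc, Zbtb7c, Pvr, Usp17le, Tcstv3, Usp17lb, Pramef6 and Ipmk, with r between 0.974 and 0.984. Thbs1, an extracellular matrix gene, stood at 4.10 and 6.88 CPM in Ago1_2 KO, against 0.113 and 0 CPM in WT. Ipmk, an inositol phosphate kinase gene, stood at 140 and 131 CPM in Ago1_2 KO, against 56.1 and 40.9 CPM in WT. None of the 10 is on a neural list used here, and Usp17le and Tcstv3 are on the list of genes of 2-cell-like cells. Copies of the Usp17l, Tcstv and Pramef families are near-identical, so their counts are uncertain.

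Of the other 8 neural genes, Tubb3 (r = 0.946, rank 64) and Ncam1 (r = 0.945, rank 65) were closest to Pax6. Map2 (0.82) and Zfp521 (0.785) followed, then Nes (0.544), Stmn3 (0.378) and Stmn2 (0.24), and Sox1 came last (0.087). The 8 points share 4 genotypes and their libraries, so these values describe the profiles and carry no test.

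**Figure D3:**
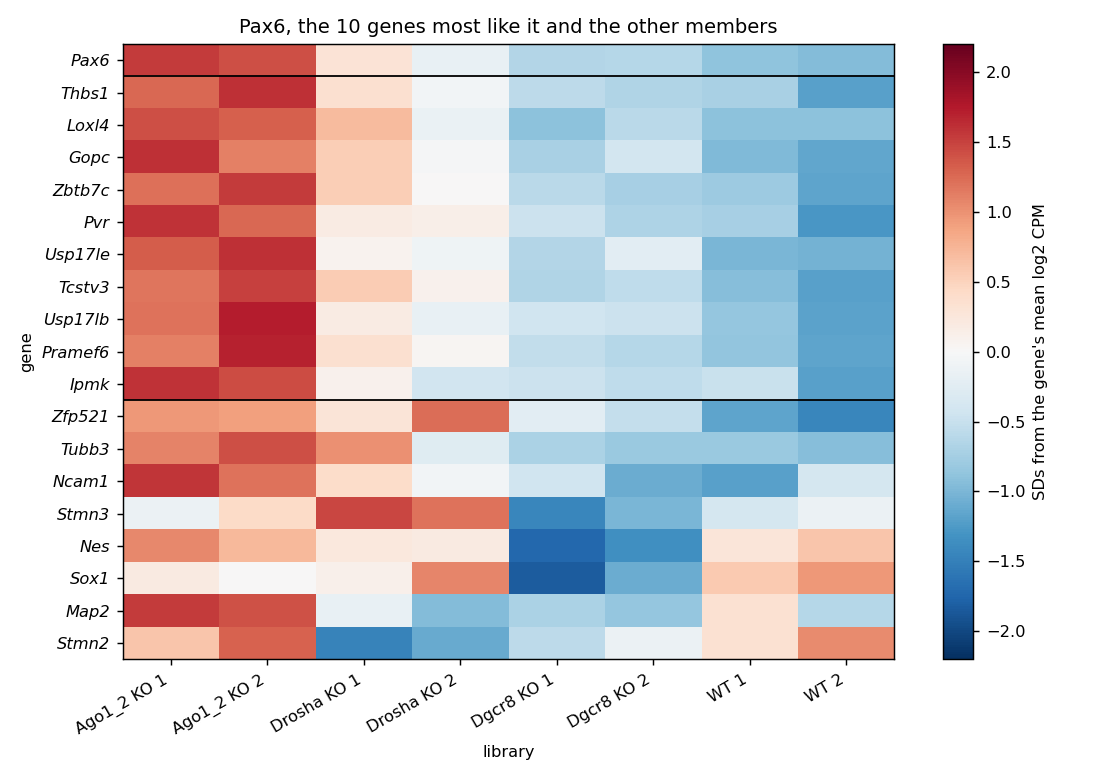
Profiles of Pax6, the 10 genes most like it and the other 8 neural genes (rows) over the 8 libraries (columns), in SDs from each gene's mean log2 CPM, red above and blue below the mean. The top rows were picked for likeness to Pax6 and share its order of genotype means, from Ago1_2 KO down to WT. In the lower rows, Stmn3, Nes, Sox1, Map2 and Stmn2 depart from that order.

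The whole list of 2-cell-like genes was followed up because Usp17le and Tcstv3, which are on it, moved with Pax6 over these same libraries. Of 13 listed, 12 passed the filter; 11 rose in Ago1_2 KO, 11 in Drosha KO and 5 in Dgcr8 KO against WT, and 0 fell, in edgeR's test, beside 10.2%, 6.53% and 2.44% of all tested genes called higher. The 5 in Dgcr8 KO became 0 without either Dgcr8 KO library, without WT 2 or under limma-voom, and it was 4 to 7 in the other settings run. Without Eif1a, at 160 to 288 CPM in every library, their summed level was 431 and 938 CPM in Ago1_2 KO, 149 and 101 CPM in Drosha KO, 28.8 and 33.5 CPM in Dgcr8 KO, and 6.94 and 5.61 CPM in WT. The order of the genotypes was that of Pax6, while the library with the higher sum in Ago1_2 KO, replicate 2, had the lower Pax6. The list was taken up for a likeness seen in these libraries, so nothing is read from the counts or the shared order. Their part in the Pax6 result was not tested.

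Other genes of neural progenitors were read from a list of 40, of which 23 passed the filter. In Ago1_2 KO against WT, 6 rose and 2 fell, beside 10.2% and 7.38% of all tested genes, with a median log2 fold change of 1.00. Sox21, a transcription factor gene of neural progenitors, rose by 1.39 ± 0.27, Meis2, a homeobox gene of the developing brain, by 1.28 ± 0.28, and Sox11, of young neurons, by 2.63 ± 0.61 (edgeR adjusted p 0.00977, 0.0163 and 0.0196). Gbx2, a homeobox gene of the anterior hindbrain that naive stem cells also express, fell by 2.27 ± 0.38, and Prom1, a progenitor surface gene, by 2.01 ± 0.35 (edgeR adjusted p 0.00522 and 0.00668). With either Ago1_2 KO library left out the count of 6 was 0, and it was 3 without WT 1. In Drosha KO 3 rose, Meis2 by 1.81 ± 0.28, Sox21 by 1.38 ± 0.27 and Sall3 by 1.91 ± 0.41 (edgeR adjusted p 0.00594, 0.0142 and 0.0186), and Gbx2 fell, beside 6.53% and 4.83% of all tested genes; without Drosha KO 2, 7 rose and 4 fell. In Dgcr8 KO, 1 was called, Sox11 (2.34 ± 0.61, edgeR adjusted p 0.0488), and 0 rose without either Dgcr8 KO library, either Ago1_2 KO library or WT 1, while 3 did without either Drosha KO library.

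Genes of neuronal structure and transmission formed the longest list, 47 genes of which 34 passed the filter. In Ago1_2 KO against WT, 10 rose and 1 fell, beside 10.2% and 7.38% of all tested genes, with a median of 0.63. Dpysl3 and Crmp1, cytosolic proteins of growth cone guidance, rose by 4.45 ± 0.61 and 5.66 ± 1.07, and Map6, which stabilizes microtubules, rose by 1.48 ± 0.26 (edgeR adjusted p 0.00234, 0.00887 and 0.00691). Crmp1 stood at 29.2 and 31.1 CPM in Ago1_2 KO, 21.8 and 1.59 CPM in Drosha KO, 0.792 and 0.635 CPM in Dgcr8 KO, and 0.282 and 0.871 CPM in WT. As with Tubb3, Drosha KO 1 was near Ago1_2 KO and Drosha KO 2 near the low genotypes. Dpysl3 also differed between the Drosha KO libraries, at 19.8 and 4.81 CPM, with Drosha KO 1 between the Ago1_2 KO and Dgcr8 KO libraries. It had 42.7 and 54.9 CPM in Ago1_2 KO, 10.6 and 7.18 CPM in Dgcr8 KO, and 1.81 and 2.61 CPM in WT. The count of 10 became 3 when Ago1_2 KO 1 was dropped, 2 when Ago1_2 KO 2 was, and 6 when WT 2 was.

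In Drosha KO against WT, 4 genes of that list rose, Map6 (1.79 ± 0.26), Dpysl3 (2.46 ± 0.58), Crmp1 (4.28 ± 1.04) and Kif5c (0.80 ± 0.22), with edgeR adjusted p of 0.00485, 0.0275, 0.0300 and 0.0427, beside 6.53% of all tested genes called higher. Without Drosha KO 1 or without WT 2 the count was 1. Chga, of secretory granules, fell by 2.39 ± 0.39 (edgeR adjusted p 0.00706). In Dgcr8 KO 2 rose, Kif5c and the GABA enzyme gene Gad1, and 3 fell, Chga, the neurofilament gene Nefl and the tau gene Mapt, beside 2.44% and 4.48% of all tested genes, with a median of -0.06. Nefl fell by 1.22 ± 0.25 and Mapt by 1.06 ± 0.26 there (edgeR adjusted p 0.0254 and 0.0408). These counts were 0 and 0 without either Dgcr8 KO library, 1 and 1 without either Ago1_2 KO library or WT 2, and 3 and 5 without WT 1. In Drosha KO against Dgcr8 KO, 8 were higher and 2 lower, beside 9.67% and 5.72% of all tested genes, and without either Dgcr8 KO library 1 was higher.

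**Figure D4:**
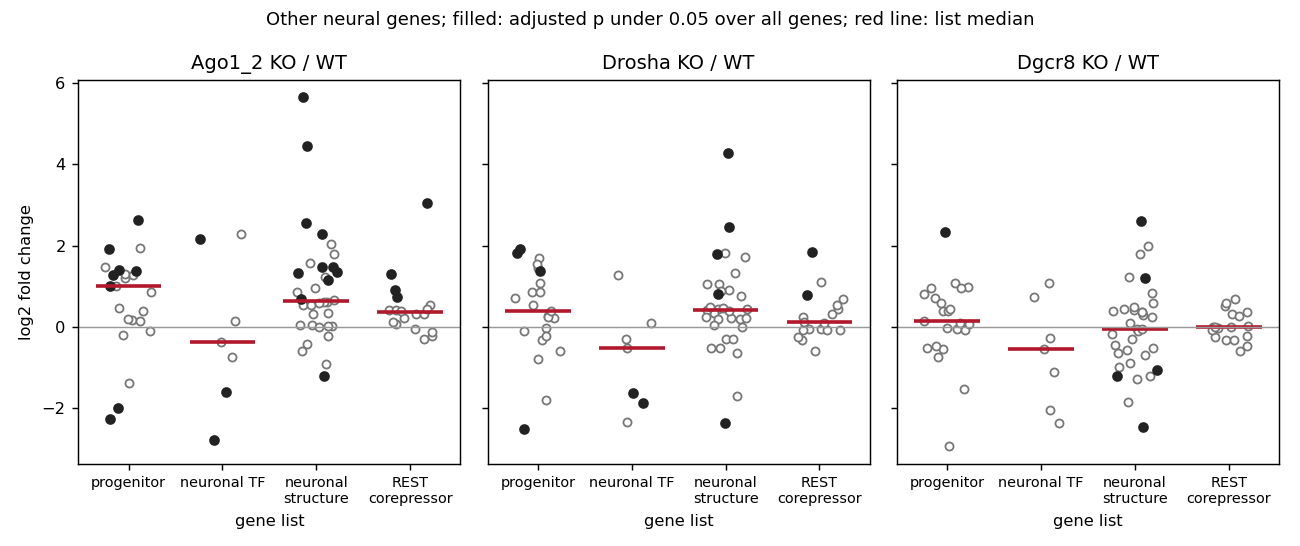
Log2 fold change over WT (vertical axis) of each tested gene of 4 lists, progenitor, neuronal transcription factor, neuronal structure and REST corepressor, in Ago1_2 KO, Drosha KO and Dgcr8 KO, with filled points for an adjusted p under 0.05 over all genes and a red line at the list median. The medians of the progenitor and structure lists are 1.00 and 0.63 in Ago1_2 KO and 0.13 and -0.06 in Dgcr8 KO, and most points are open.

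Transcription factors that commit cells to neurons were mostly silent. Of 28 listed, 7 passed the filter, and 24 stayed under 1 CPM in all libraries. Neurod1 rose in Ago1_2 KO by 2.15 ± 0.64 (edgeR adjusted p 0.0449), to 4.78 and 5.01 CPM, against 0.734 and 1.45 CPM in WT, a call lost without either Ago1_2 KO library (2.18 and 2.11, adjusted p 0.166 and 0.168), Dgcr8 KO 2 (2.14), WT 1 (1.78, adjusted p 0.111) or WT 2 (2.75, adjusted p 0.0789). Ebf1 fell by 2.81 ± 0.33 in Ago1_2 KO and fell by 1.65 ± 0.31 in Drosha KO against WT (edgeR adjusted p 0.00131 and 0.0118). Eomes fell by 1.62 ± 0.34 in Ago1_2 KO and fell by 1.88 ± 0.34 in Drosha KO (edgeR adjusted p 0.0132 and 0.0104). Both also act in mesoderm. Neurog2 had 0 counts in all 8 libraries. Among defining genes of neurons, Dcx and Slc17a6 had 0 counts throughout, and Rbfox3 and Snap25 stayed under 1 CPM. Other neuronal genes of the structure list were expressed in every library, among them Map1b at 48.1 to 176 CPM, Mapt at 13.0 to 42.1 CPM, Nefl at 8.64 to 33.6 CPM, Uchl1 at 6.65 to 27.1 CPM and Syn1 at 5.14 to 16.4 CPM. Of that list of 47, 15 stayed under 1 CPM in all libraries.

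REST and its corepressors silence neuronal genes in stem cells. Of 18 listed and measured genes, 4 rose and 0 fell in Ago1_2 KO against WT, beside 10.2% and 7.38% of all tested genes. Ctdspl, a small phosphatase gene of the REST complex, rose by 3.05 ± 0.45, the histone methyltransferase gene Ehmt2 by 0.91 ± 0.19 and the corepressor gene Rcor2 by 1.30 ± 0.34 (edgeR adjusted p 0.00325, 0.0144 and 0.0285). Rest itself stood at 366 and 312 CPM in Ago1_2 KO, 190 and 157 CPM in Drosha KO, 318 and 269 CPM in Dgcr8 KO, and 215 and 197 CPM in WT. It was higher in Ago1_2 KO than in WT by 0.72 ± 0.20 (edgeR adjusted p 0.0344) and lower in Drosha KO than in Dgcr8 KO by 0.76 ± 0.20 (edgeR adjusted p 0.0310). The latter call was lost without either Ago1_2 KO library, either Dgcr8 KO library or Drosha KO 2 (-0.87 to -0.62). The count of 4 was 1 without either Ago1_2 KO library and 7 without WT 1. In Drosha KO against WT 2 rose, Ctdspl and Ehmt2, beside 6.53% of all tested genes, and 0 did without either Ago1_2 KO or either Dgcr8 KO library, 1 without Drosha KO 1 or WT 2, and 4 without WT 1. In Dgcr8 KO against WT edgeR called 0 of 18, as did DESeq2 and limma-voom, while at an unadjusted p under 0.05 there were 2 higher and 2 lower, and without WT 1 the adjusted calls were 2 and 2.

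The splicing list held the polypyrimidine-tract genes Ptbp1, Ptbp2 and Ptbp3 and another splicing gene, Srrm4. Of these 4, 0 were called by edgeR in any of the 6 comparisons, or by DESeq2 and limma-voom. At an unadjusted edgeR p under 0.05, 3 were higher in Dgcr8 KO than in WT, Ptbp2, Ptbp3 and Srrm4. In Drosha KO 1 was higher, Ptbp2. Without WT 1 the adjusted calls were 2 higher in Dgcr8 KO and 1 in Drosha KO against WT. Of 10 HES and ID repressor and Groucho genes, 8 passed the filter and Tle1 was the 1 called against WT, higher in Ago1_2 KO (0.92 ± 0.22, edgeR adjusted p 0.0216) and in Drosha KO (0.80 ± 0.22, edgeR adjusted p 0.0437). Of all tested genes, 10.2% and 6.53% were called higher in these comparisons.

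Some calls against WT given here for single genes outside the set held with each library left out in turn. In Ago1_2 KO they were those of Dpysl3, Crmp1, Ctdspl, Ebf1, Tubb6, Mbp, Ngfr, T, Kdr and Evx1. In Drosha KO they were those of Meis2, Sox21, Gbx2, Map6, Chga, Ebf1, Eomes, Mbp and T. In Ago1_2 KO, calls were lost without either Ago1_2 KO library for Sox21 (1.37 and 1.42, edgeR adjusted p up to 0.0674), Prom1 (-2.02 and -2.0, up to 0.0633), Meis2 (1.16 and 1.40, up to 0.112), Eomes (-1.76 and -1.50, up to 0.116) and Ehmt2 (0.82 and 0.99, up to 0.118). That of Gbx2 was lost without Ago1_2 KO 1 (-2.04, edgeR adjusted p 0.0618) and that of Map6 without Ago1_2 KO 2 (1.26, edgeR adjusted p 0.0710). Those lost without either Ago1_2 KO library and also without a WT library were Sox11 (WT 1 or WT 2, 2.30 to 3.0, edgeR adjusted p up to 0.119) and Rcor2 (WT 1, 1.05 to 1.42, up to 0.149). Those lost without either Ago1_2 KO or either Dgcr8 KO library were Tubb2a (also WT 1, 0.57 to 0.75, edgeR adjusted p up to 0.262), Rest (also WT 2, 0.60 to 0.83, up to 0.227), Tle1 (also WT 2, 0.86 to 0.98, up to 0.144) and Foxd3 (also either WT library, 0.84 to 1.40, up to 0.245).

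In Drosha KO, Sall3 was at 1.27 without Drosha KO 1 (edgeR adjusted p 0.102) and Tubb6 at -1.0 (edgeR adjusted p 0.0552). Crmp1 was at 1.42 without that library (edgeR adjusted p 0.159) and Dpysl3 at 1.11 (edgeR adjusted p 0.125), and both calls were also lost without either WT library. Tle1 (0.56 to 0.83, edgeR adjusted p up to 0.189) and Ehmt2 (0.63 to 0.77, up to 0.146) were lost without Drosha KO 1 or any of the 4 libraries of Ago1_2 KO and Dgcr8 KO, and Tle1 also without WT 2. Kif5c was lost without any library but WT 1 (0.66 to 0.94, edgeR adjusted p up to 0.108) and Ctdspl without any but Drosha KO 1 (1.58 to 2.2, up to 0.0674). In Dgcr8 KO, calls were lost without either Dgcr8 KO library for Chga (-2.80 and -2.21, edgeR adjusted p up to 0.190) and Kif5c (1.19 and 1.21, up to 0.193). There Sox11 and Gad1 were lost without any library of Ago1_2 KO, Dgcr8 KO or WT (2.09 to 2.70 and 2.36 to 2.92, edgeR adjusted p up to 0.278 and 0.211), and Nefl and Mapt likewise except WT 1 (-1.30 to -1.08 and -1.10 to -1.02, up to 0.210 and 0.297).

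Markers of neighbouring lineages were read beside the neural genes. Of 13 glial markers 5 passed the filter; Gfap, Olig1, Mog and Sox10 stayed under 1 CPM in all libraries, and Mbp, of myelin, was higher in Ago1_2 KO than in WT by 3.09 ± 0.28 and in Drosha KO by 3.16 ± 0.28 (edgeR adjusted p 0.000334 and 0.000718). Aldh1l1, of astrocytes, fell by 1.20 ± 0.25 in Ago1_2 KO (edgeR adjusted p 0.0132) and fell by 0.97 ± 0.25 in Dgcr8 KO (edgeR adjusted p 0.0470), calls lost without either library of Ago1_2 KO or without WT 2 (-1.27 to -0.88 and -0.98 to -0.67), and in Dgcr8 KO also without either of its own. The median over the 5 was -0.65 in Ago1_2 KO, -0.41 in Drosha KO and 0.73 in Dgcr8 KO. Of 10 neural crest markers 7 passed, and Ngfr and Foxd3 rose in Ago1_2 KO by 2.19 ± 0.36 and 1.14 ± 0.32 (edgeR adjusted p 0.00506 and 0.0362). In Drosha KO they rose by 1.31 ± 0.35 and 1.44 ± 0.32 (edgeR adjusted p 0.0423 and 0.0214). The Drosha KO call of Ngfr was lost without any library but Drosha KO 2 (0.69 to 1.67), and that of Foxd3 without Drosha KO 1 (1.46). Foxd3 is also a stem cell gene. Tfap2a, an early crest and surface ectoderm transcription factor gene, fell by 1.46 ± 0.40 in Ago1_2 KO (edgeR adjusted p 0.0350). That Tfap2a call was lost without any library of Ago1_2 KO or Dgcr8 KO or without WT 2 (-1.95 to -1.04). The summed crest list had 70.8 and 95.9 CPM in Ago1_2 KO, 69.8 and 50.8 CPM in Drosha KO, 52.6 and 54.3 CPM in Dgcr8 KO, and 24.7 and 37.3 CPM in WT. Mesoderm markers summed to 26.0 and 28.8 CPM in Ago1_2 KO, 12.1 and 11.7 CPM in Drosha KO, 67.1 and 82.8 CPM in Dgcr8 KO, and 32.6 and 48.2 CPM in WT. Of 12 listed, 7 passed the filter, and in Ago1_2 KO against WT 2 were called in each direction, beside 10.2% of all tested genes higher and 7.38% lower. T, the brachyury gene, made up much of the Dgcr8 KO and WT sums, at 0 and 0.0748 CPM in Ago1_2 KO, 0.340 and 0.0388 CPM in Drosha KO, 49.5 and 63.3 CPM in Dgcr8 KO, and 12.6 and 33.1 CPM in WT. It was called lower in Ago1_2 KO and in Drosha KO than in WT (edgeR adjusted p 0.000583 and 0.00125), as was Eomes. Kdr, a receptor gene of blood vessel precursors, had 14.9 and 13.8 CPM in Ago1_2 KO, against 0.734 and 0.435 CPM in WT, and Evx1, of the primitive streak, 2.23 and 3.14 CPM, against 0 and 0.0484 CPM in WT. Both were called higher in Ago1_2 KO (edgeR adjusted p 0.00144 and 0.00551). They were also called higher in Drosha KO than in WT (edgeR adjusted p 0.0278 and 0.0234), as was Kdr in Dgcr8 KO (edgeR adjusted p 0.0337). These Drosha KO and Dgcr8 KO calls were each lost when some single libraries were left out. Endoderm markers summed to between 9.70 and 17.0 CPM in all libraries. Within that list, Gata4 was called higher in Drosha KO and Hnf4a lower in Ago1_2 KO than in WT, calls lost when some single libraries were left out. Summed trophectoderm markers were lowest in Dgcr8 KO, at 82.7 and 88.3 CPM. The part of these lineage markers in the neural values was not tested.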

How the data were processed

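Messenger RNA of 8 libraries of mouse E14 cells, 2 per genotype, was measured. The deposited table holds whole counts per gene. Per the submitters' processing notes reads were aligned with STAR 2.4.2a to GRCm38. Per the labels, libraries came from a reverse-stranded TruSeq protocol. For the counting tool, its strand setting and the annotation release, the sources used here give no name. Columns left unused numbered 0.

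Identifiers were matched without version to GENCODE M21; 47224 of 47643 genes had a symbol. After filterByExpr, 16388 remained. With TMM scaling, a model with a mean for each genotype was fitted over the 8 libraries (edgeR 4.0.16 in R 4.3.3, robust settings). Each of 6 comparisons used the quasi-likelihood F test with Benjamini-Hochberg adjustment across the 16388 genes and calls at under 0.05. Errors are standard errors. CPM use TMM-scaled library sizes. Steps were tested on simulated data.

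The 9 genes, the gene lists and the comparisons were chosen with earlier results of these data known. Named genes were the 9, the 4 targeted genes, up to 3 called genes per direction of each list by adjusted p, the 10 genes most like Pax6, and its 3 nearest coding genes on each side. Marker genes at or near 0, neuronal genes given by their range and related tubulin, stathmin and paired-box genes were named after their values were seen. Alternatives were DESeq2 1.42.0 and its size factors, library size only, limma-voom (limma 3.58.1), no filter, a filter of 1 CPM in 2 libraries, only the groups compared, a replicate block, a transcript GC offset and each library left out. Motifs were sought on both strands of promoters and on the transcript strand of UTRs. Computations outside R used Python 3.11.15, numpy 2.4.6 and matplotlib 3.10.9.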

Additional observations from a re-analysis of the deposited data

How the results depend on the processing

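The number of the 9 genes called was computed again under each alternative. In comparisons with Ago1_2 KO these counts are a description. For Ago1_2 KO against WT it was 4, and 3 to 5 with each library left out. For Drosha KO against WT it was 5, with 3 in a fit of these groups alone and 2 to 5 with each library left out. For Dgcr8 KO against WT it was 3, with 1 under the GC offset and 0 to 4 with each library left out. For Ago1_2 KO against Drosha KO it was 3, with 5 without the low-count filter, 0 in a fit of these groups alone and 0 to 3 with each library left out. For Ago1_2 KO against Dgcr8 KO it was 9, and 2 to 9 with each library left out. For Drosha KO against Dgcr8 KO it was 6, with 3 under limma-voom, 3 in a fit of these groups alone and 1 to 7 with each library left out. Leaving out 1 of 2 libraries leaves a lone library that is assumed to vary like the other groups. The cause of these differences was not tested.

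Replicate numbers in the labels are not stated to pair libraries, and the correlation of same-numbered deviations ran from 0.096 to 0.245 over 6 pairs of genotypes. With the replicate number as a block, 5, 5, 4, 3, 9 and 7 of the genes were called in Ago1_2 KO, Drosha KO and Dgcr8 KO against WT, Ago1_2 KO against Drosha KO and against Dgcr8 KO, and Drosha KO against Dgcr8 KO. The added calls were Map2 in Ago1_2 KO against WT (0.99) and Stmn2, lower in Dgcr8 KO than in WT (-0.76, adjusted p 0.0186) and in Drosha KO than in Dgcr8 KO (-0.70, adjusted p 0.0168).

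Directions turned for uncalled genes only. With each library left out, Sox1 in Drosha KO against WT ran from -0.60 to 0.28, Map2 from -0.53 to 0.08 in Drosha KO against WT and from -0.11 to 0.38 in Drosha KO against Dgcr8 KO, and Ncam1 in Dgcr8 KO against WT from -0.26 to 0.35. With the block, Ncam1 in Dgcr8 KO was -0.02 against WT. Without the low-count filter, which adds genes to those tested, 15 genes of the neuronal structure list were higher in Ago1_2 KO than in WT and 8 of the progenitor list in Drosha KO. The share of all genes called under that setting is not given here, so nothing is read from these counts. Pax6 in Dgcr8 KO and WT rests on 4 to 7 counts per library, which limits what can be said of it there.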
